A study of Mus musculus with 2 samples.

Results

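The genes described here encode the integrins, the laminins and the other core components of the basement membrane and its adhesive matrix. They were chosen by gene symbol alone: every integrin subunit with a numbered alpha or beta symbol, every laminin chain, and the genes Nid1, Nid2, Hspg2, Agrn, Dag1, Fn1 and Vtn, with the leukocyte subunits Itgam and Itgb2 left out. This gave 36 of the 18193 genes named on the array, made up of 19 integrin subunits, 10 laminin chains and 7 other genes, read by 80 probe sets. Transcript signals were compared between gonad-mesonephros complexes, the embryonic gonad with the mesonephric kidney still attached, of XX wild-type mouse embryos and of XX embryos homozygous for the Gata4ki allele, all at E12.5. Gata4ki is a knock-in allele whose product, a zinc finger factor of the somatic gonad, binds the FOG cofactors less well. It is present in every cell of the embryo, and the labels give a strain, C57Bl/6, for the mutant only. Each group was 1 array that carried RNA of 6 pairs of complexes. No value therefore has a replicate error, no test between the groups could be made, and each difference describes these 2 arrays. Gonad and mesonephros were read together in bulk, so fewer cells of a type and less RNA per cell cannot be told apart.

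A basement membrane is a thin sheet of matrix that underlies epithelia and surrounds vessels, ducts and muscle fibres. Laminins, trimers of an alpha, a beta and a gamma chain, polymerise at the cell surface, and nidogens and heparan sulphate proteoglycans such as perlecan (Hspg2) and agrin (Agrn) link that network to a second one made of type IV collagen. Cells hold on to the sheet through integrins, which are dimers of an alpha and a beta subunit, and through dystroglycan (Dag1). In the developing gonad a basement membrane lies under the coelomic epithelium, and in the mesonephros it surrounds the ducts and tubules.

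The values are MAS5 signals on a linear scale, and a gene was taken as measured where at least 1 of its probe sets exceeded a floor, a signal of 24.0, on at least 1 array. By that criterion 27 of the 36 genes were measured: 13 of the integrin subunits, 8 of the laminin chains and 6 of the others. Of these 27 genes, 26 were above the floor on both arrays, and Itga10 was above it in wild type only. The other 9 genes, Itga2, Itga7, Itgb2l, Itgb4, Itgb6, Itgb7, Lamb3, Lamc3 and Vtn, had no probe set above the floor on either array, which gives them an upper limit and not a level. Itga11 was not analysed here. Each gene is given by its brightest probe set, and ratios are log2 of mutant over wild type, with values under the floor set to it. Pairs of signals are given as wild type, then mutant, with the log2 ratio in parentheses. Signals of different genes come from different probes and are not compared with each other.

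Most of these genes had nearly the same signal on both arrays. None of the 27 was 2-fold higher in the mutant, where 0.846% of the 12300 measured genes were, and none was 2-fold lower, where 0.537% were. At a smaller difference of 1.5-fold, 3 were higher in the mutant, namely Itgb3, Lama3 and Lama4, against 3.54% of all measured genes. None was 1.5-fold lower, against 3.11%. The other 24 genes lay within 1.5-fold, 88.9% of the 27, as did 93.3% of all measured genes. The median log2 ratio was 0.05 over the 27 genes and 0.01 over all measured genes. Of the 27, 16 were above 0 and 11 below, and of all 12300 measured genes 6320 were above 0 and 5980 below. The median absolute log2 ratio was 0.17 for the 27 and 0.14 for all. Ratios ran from -0.39 for Itgb1 to 0.91 for Itgb3.

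**Figure D1:**
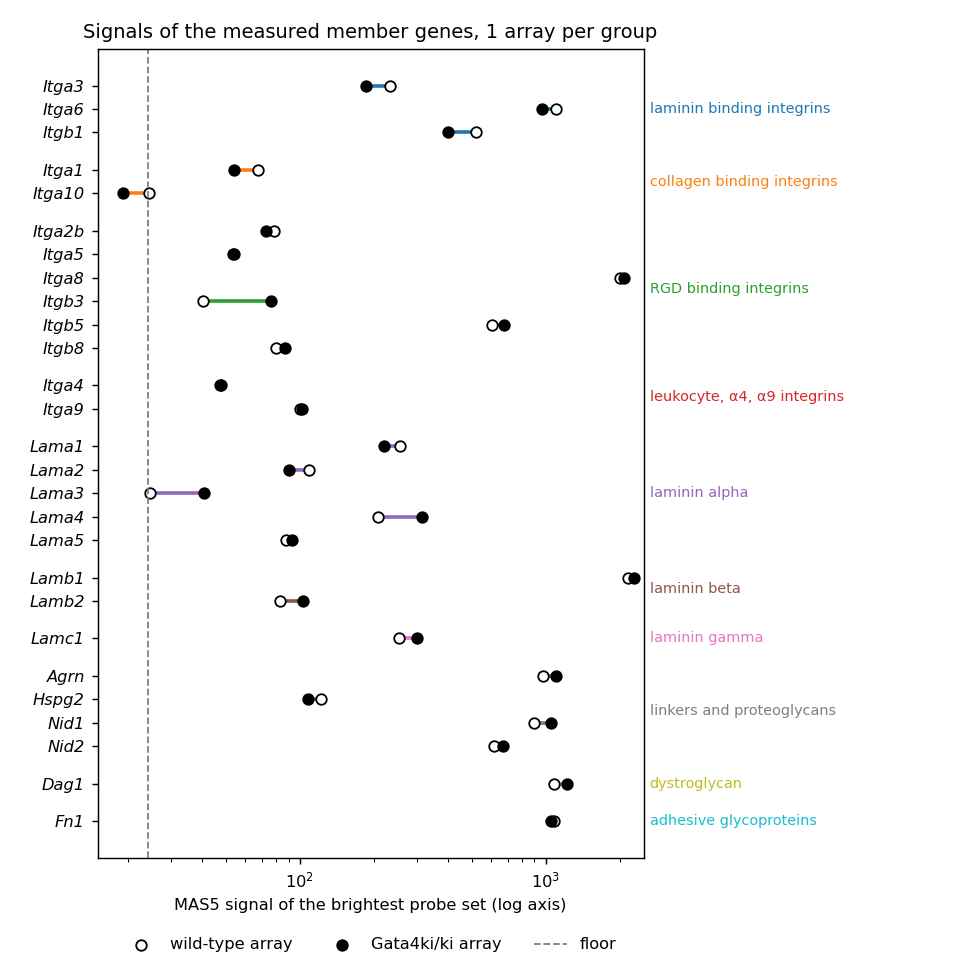
MAS5 signal (log axis) of the brightest probe set of each of the 27 measured genes on the wild-type array (open circles) and the Gata4ki/ki array (filled circles), grouped by role, with the floor as a dashed line. Itgb3, Lama3 and Lama4 have the widest gaps, and their signals are higher on the mutant array; signals are not comparable between genes.

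All 3 measured laminin-binding integrins, Itgb1, Itga6 and Itga3, were lower in the mutant on their brightest probe sets, by less than 1.5-fold. Itgb1 encodes the beta 1 subunit, the shared partner of the laminin, collagen and many fibronectin receptors. On its brightest probe set the wild-type array read 522.7 and the mutant array 399.6 (log2 ratio -0.39), the lowest ratio among the 27 genes. Of the measured genes with mean signals above 400, 1.44% had a ratio as low or lower. The other measured probe sets of Itgb1 differed from it and from each other: 1 of them, with 371.7 and 414.9, had a ratio of 0.16, and the dimmest, with 51.5 and 19.2, one of -1.10 or lower because the mutant signal was under the floor. The brightest and the dimmest have suffixed names, which mark probe sets that can match several transcripts, and without such probe sets Itgb1 had a ratio of 0.16. The direction for Itgb1 thus rests on which probe set is read.

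Itga6 encodes the alpha 6 subunit, a laminin receptor of epithelia, germ cells and endothelium. Its signals were 1098 and 966 (log2 ratio -0.18), and the other probe set read 497.8 and 377.0 (-0.40), so both were lower in the mutant. Itga3, which encodes the alpha 3 subunit of another laminin receptor, read 231.4 and 185.0 (log2 ratio -0.32). Its dimmer probe sets gave 58.8 and 56.8, and 25.2 and 27.4, with ratios of -0.05 and 0.12, so the difference was seen on the brightest only. Itga7, the alpha 7 subunit best known from muscle, and Itgb4, the beta 4 subunit of hemidesmosomes, were not above the floor: their signals were 2.60 and 8.17 for Itga7, and 1.82 and 2.86 for Itgb4.

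Among the collagen-binding integrins 2 of 3 were measured. Itga1, the alpha 1 subunit found on smooth muscle, endothelium and mesenchyme, read 67.3 and 53.7 (log2 ratio -0.32). At mean signals under 100 a ratio that low or lower was found in 19.5% of the measured genes. Itga10 read 24.4 and 19.1, wild type first, and is known only as a bound of -0.02. That value is set by the floor, and with the floor at a signal of 13.7 the Itga10 ratio was -0.35. Itga2 had 10.6 and 1.63 and was not above the floor.

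Promoter sequences were examined because the altered factor, GATA4, binds DNA at the letters GATA. RefSeq promoters on assembly GRCm38.p6 were held for 25 of the 36 genes, with 30 start sites; Itgb3, Lama3 and Lama4 were not among those examined. In the 250 bases before the start, AGATAA or its form AGATAG, or TGATAA or its form TGATAG, on either strand was found in 1 of the 25 genes, 4.0%. The share was 23.4% of the 14368 genes of the array in that table. Below, a match to the GATA letters means 1 of the forms searched, and not the bare letters GATA. The GC box letters GGGCGG, on either strand, were present in 11 of the 25 genes, 44.0%, against 53.5%, and the TATA box letters TATAAA in 1 gene, 4.0%, against 10.5%. The median GC content was 59.8% over the 30 starts and 57.6% over all starts of array genes. A match of letters is not a binding site, and a window without them says nothing about GATA4 elsewhere at the gene.

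The 250 bases before the start are shown 5′ to 3′ on the strand of the gene for Itgb1, Itga1 and Itga3, the genes with the largest absolute ratios among those with a promoter in the table, and for Itgb7, the only gene with a match to the GATA letters. Capitals mark the GC box letters in Itgb1 and Itga3 and the GATA match, CTATCT as read on this strand, in Itgb7, and none of them overlap. They lie at chr8:128685404-128685653 on the plus strand for Itgb1, and on the minus strand at chr13:115101965-115102214 for Itga1, chr11:95076715-95076964 for the outer of 2 starts of Itga3, and chr15:102231936-102232185 for Itgb7.
Itgb1: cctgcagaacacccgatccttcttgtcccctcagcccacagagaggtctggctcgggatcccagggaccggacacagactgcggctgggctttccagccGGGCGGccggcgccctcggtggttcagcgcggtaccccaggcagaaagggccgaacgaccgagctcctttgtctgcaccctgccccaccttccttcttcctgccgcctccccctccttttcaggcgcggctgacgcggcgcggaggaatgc
Itga1: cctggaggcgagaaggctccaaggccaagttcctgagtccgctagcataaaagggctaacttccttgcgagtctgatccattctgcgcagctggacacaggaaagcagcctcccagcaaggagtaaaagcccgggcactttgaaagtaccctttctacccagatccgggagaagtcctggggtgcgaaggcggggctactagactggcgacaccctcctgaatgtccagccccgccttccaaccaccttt
Itga3: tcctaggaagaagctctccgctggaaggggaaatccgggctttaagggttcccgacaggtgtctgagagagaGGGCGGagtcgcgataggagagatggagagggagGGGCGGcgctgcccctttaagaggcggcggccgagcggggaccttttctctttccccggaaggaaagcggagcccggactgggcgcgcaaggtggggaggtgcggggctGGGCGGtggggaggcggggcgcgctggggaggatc
Itgb7: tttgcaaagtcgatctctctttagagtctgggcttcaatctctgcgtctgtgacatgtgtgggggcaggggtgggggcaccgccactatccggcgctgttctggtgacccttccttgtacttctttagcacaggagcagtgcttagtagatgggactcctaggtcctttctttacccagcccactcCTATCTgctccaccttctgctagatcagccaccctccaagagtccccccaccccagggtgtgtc

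Itgb1 held 1 GC box, 151 bases before the start, Itga3 held 3, at 178, 144 and 35 bases, and Itga1 none. These 3 genes had ratios of -0.39, -0.32 and -0.32, with no match to the GATA forms searched in the windows shown. The Itga3 window does hold the bare letters GATA, in a form outside that search. In Itgb7 the match began 64 bases before the start, and the gene was not above the floor.

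The integrins that bind the peptide motif RGD in fibronectin, vitronectin and related ligands held the highest ratio. Itgb3 (gene number 16416) encodes the beta 3 subunit, which pairs with Itga2b in platelets and with Itgav on endothelium, macrophages and osteoclasts. The wild-type array read 40.3 and the mutant array 75.9, 1.88-fold apart (log2 ratio 0.91). Of measured genes with mean signals under 100, 2.88% had a ratio as high or higher. This rests on 1 probe set, since the other gave 1.42 and 2.60 and was not above the floor. With the floor at a signal of 48.5 the wild-type value became a limit and the ratio a bound of 0.64.

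Both known partners of beta 3 had ratios close to 0. Itga2b, the platelet alpha IIb subunit, read 78.3 and 72.6 (log2 ratio -0.11). Itgav, which lies outside the symbol rule, gave 1216 and 1148 and a ratio of -0.08, with a second probe set at 0.26. Of the cells named, platelets and macrophages had markers that were mostly higher on the mutant array, whereas 10 of 14 endothelial genes had ratios below 0, with a median of -0.18. All 7 measured of 10 megakaryocyte and platelet genes had ratios above 0, with a median of 0.61 and signals that summed to 775 (wild type) and 1219 (mutant). Treml1, a receptor of platelet granules, had 5.78 and 51.3, a bound of 1.09, while Ppbp and Pf4, both platelet granule chemokines, had ratios of 1.005 and 0.65. In the same list Gp6, Gp9 and Selp stayed under the floor on both arrays. Of 14 macrophage and leukocyte genes, all measured, 13 had ratios above 0, with a median of 0.56 and summed signals of 2008 and 2964. Of these genes 5 were at least 1.5-fold higher, Lyz2 and C1qa had ratios of 0.001 and 0.02, and Cx3cr1 had one of -0.385. The largest ratios were 0.92 for Ptprc, 0.87 for Fcer1g and 0.77 for Csf1r. Their part in the Itgb3 value was not tested.

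The other measured RGD-binding subunits were within 1.5-fold on every probe set. Itga8, the alpha 8 subunit of mesenchyme that binds nephronectin in the developing kidney, read 2006 and 2084 (log2 ratio 0.05), and the other probe set read 427.2 and 447.1 (0.07). Its 2 probe sets were the closest to each other among the genes read by more than 1. Itga5, the alpha 5 subunit of the main fibronectin receptor, read 53.5 and 54.0 (0.01). Itgb8, a subunit known for the activation of latent TGF-beta, read 80.1 and 86.9 (0.12). Itgb5, which pairs with Itgav, read 602.9 and 678.1 (0.17), but its 3 other probe sets had ratios of 0.08, 0.05 and -0.31, and without suffixed probe sets its ratio was -0.31. Itgb6, an epithelial subunit, was not above the floor.

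Of the alpha 4, alpha 9 and leukocyte subunits, 2 of 4 were measured, both with ratios close to 0. Itga4, a receptor for fibronectin and VCAM1 on leukocytes, mesenchyme and epicardium, read 47.9 and 47.4 (log2 ratio -0.01). Its other 4 probe sets were not above the floor. Itga9, a receptor for tenascin and other ligands, read 100.02 and 101.7 (0.02), while its dimmer probe sets had ratios of -0.13 and of -0.65 or lower. Itgb7, the partner of Itga4 on lymphocytes, had 6.71 and 17.4, and Itgb2l had at most 21.7 on any probe set, so both stayed under the floor. Over all 13 measured integrin subunits 6 had ratios above 0 and 7 below, with a median of -0.01.

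The laminin alpha chains, which carry the domains that cells bind, went in different directions. Lama4 (gene number 16775), the alpha 4 chain of vessel walls and mesenchyme, read 208.5 on the wild-type array and 313.0 on the mutant array (log2 ratio 0.59). The dimmer of its probe sets read 27.98 and 36.6 (0.39), so both were higher in the mutant. At mean signals from 100 to 400, 1.93% of measured genes had a ratio as high or higher. The value lies at the 1.5-fold limit itself, at 1.501, and was under that limit in 4 of the 7 alternative settings, with the lowest ratio 0.49.

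Lama4 differed in direction from most endothelial genes on the same arrays. All 14 endothelial genes were measured, 10 had ratios below 0, and their median was -0.18, with signals that summed to 3615 (wild type) and 3160 (mutant). Sox17, Sox18 and Tek had ratios of -0.66, -0.57 and -0.44. Of 8 smooth muscle and pericyte genes 7 were measured, with a median of 0.00 and summed signals of 3076 and 4185. The median was the bound of Myh11, at 24.04 and 20.5, and the others spread widely, with 3 of the 7 above 0. That sum is weighted to the brightest genes, Pdgfrb at 1441 and 1804 and Acta2 at 795 and 1475. Acta2, Tagln and Cspg4 had ratios of 0.89, 0.79 and -0.69, and Cnn1 was not above the floor. Their part in the Lama4 value was not tested.

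Lama3 (gene number 16774) encodes the alpha 3 chain of epithelial laminin. Its brightest probe set gave 24.5, just above the floor, and 40.9, 1.67-fold apart, a log2 ratio of 0.74. A ratio that high or higher was found in 4.68% of measured genes with mean signals under 100. The second probe set gave 5.16 and 2.21, under the floor on both arrays, and the ratio was 0.42 when a pseudocount replaced the floor. The brightest probe set has a suffixed name, and without such probe sets Lama3 was not measured.

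The remaining alpha chains showed smaller differences. Lama1, the chain of early embryonic and tubular basement membranes, read 255.6 and 220.2 (log2 ratio -0.22). Lama2, the chain of muscle and peripheral nerve, read 109.0 and 90.3 (-0.27). Each was read by 1 probe set, and both were lower in the mutant. Lama5, the chain of most mature epithelial basement membranes, read 87.5 and 92.6 (0.08), with 0.22 on the other probe set.

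The beta and gamma chains that were measured all had ratios above 0 on their brightest probe sets. Lamb1, the beta 1 chain shared by most embryonic laminins, read 2152 and 2284 (log2 ratio 0.09). Its other measured probe sets gave 280.4 and 315.3, and 473.7 and 527.3, with ratios of 0.17 and 0.15, so all 3 were higher in the mutant by a small amount. Lamb2, the beta 2 chain of glomerular and synaptic basement membranes, gave 83.2 and 103.2 on its only probe set, a ratio of 0.31. Lamc1, the gamma 1 chain found in nearly all laminins, read 253.7 and 299.8 (0.24). Its dimmer probe set read 47.2 and 28.7 (-0.72), so the Lamc1 probe sets pointed in opposite directions. Lamb3 and Lamc3 were not above the floor, with at most 22.8 on any probe set. Of the 8 measured laminin chains 6 had ratios above 0 and 2 below, with a median of 0.16.

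The linkers and proteoglycans were close to equal on both arrays. Nid1, which encodes nidogen 1, the link between laminin and type IV collagen, read 896 and 1054 (log2 ratio 0.23). The other probe set read 145.6 and 137.7 (-0.08). Nid2, the other nidogen, read 618 and 671 (0.12). Agrn, agrin, known from the neuromuscular junction and from kidney, read 978 and 1096 (0.17). These 3 genes were thus slightly higher in the mutant on their brightest probe sets, with the dimmer one of Nid1 the other way. Hspg2, perlecan, read 121.6 and 107.4 (-0.18), with -0.04 on the other probe set. The matrix receptor dystroglycan, Dag1, which binds laminin, perlecan and agrin, was read by 4 probe sets, all higher in the mutant, from 0.07 to 0.17, with the brightest at 1084 and 1219. Fn1, fibronectin, the main RGD ligand of mesenchyme, read 1086 and 1054 (-0.04), and a dim second probe set gave 39.4 and 22.5, a bound of -0.71. Vtn, vitronectin, a plasma protein made mainly by liver, had 2.11 and 18.1 on its brighter probe set and was not above the floor. Liver genes were mostly not above the floor either, with 2 of 8 measured and Alb at 12.1 and 11.5, while Afp read 412.3 and 297.4 (-0.47) and Apoa2 14.2 and 30.1, a bound of 0.33.

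**Figure D2:**
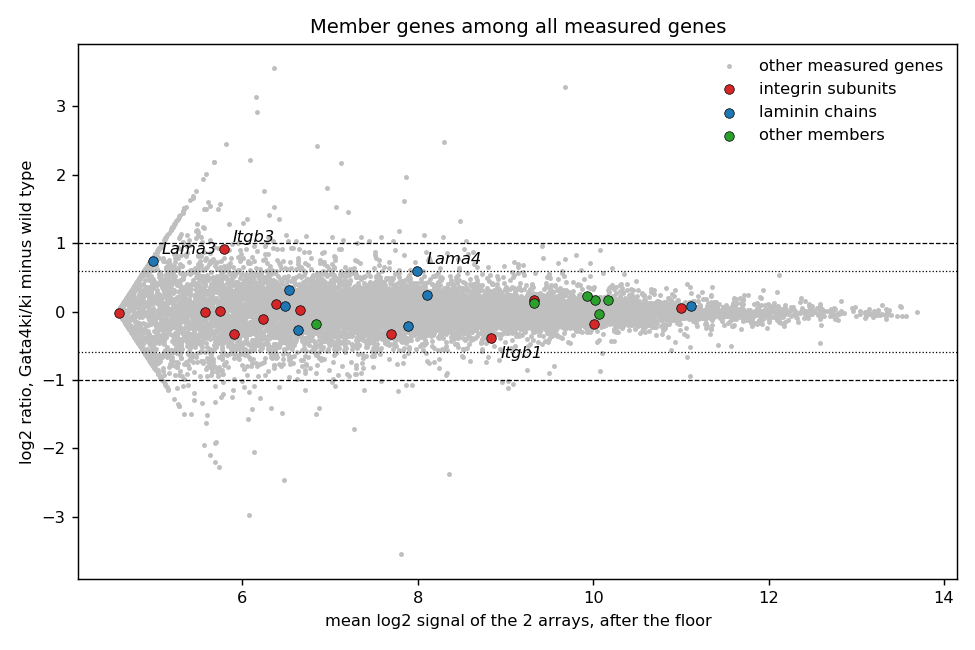
Log2 ratio, Gata4ki/ki minus wild type, against the mean log2 signal of the 2 arrays for all 12300 measured genes (grey) and the 27 measured integrin, laminin and basement membrane genes (coloured). Dashed lines mark 2-fold and dotted lines 1.5-fold; none of the 27 lies outside the dashed lines, and Itgb3, Lama3 and Lama4 lie on or above the upper dotted line.

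The spread of all genes at like signal gives the scale of these ratios. The robust SD of the log2 ratio was 0.38 for measured genes with mean signals under 100, 0.21 from 100 to 400 and 0.12 above 400. The 11 genes of this family with mean signals under 100 ran from -0.32 to 0.91, the 6 from 100 to 400 from -0.32 to 0.59, and the 10 above 400 from -0.39 to 0.23. This spread mixes probe noise and biology, and is not the spread between embryos.

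Probe sets of 1 gene often disagreed. Of the 14 genes of this family with at least 2 measured probe sets, 8 had all of them on 1 side of 0, or 57.1%, and among all 5463 such genes 45.0% did. The 5 genes with all probe sets higher were Itga8, Lama4, Lama5, Lamb1 and Dag1, and the 3 with all lower were Itga6, Hspg2 and Fn1. Itga3, Itga9, Itgb1, Itgb5, Lamc1 and Nid1 had probe sets on both sides. The median gap between the highest and the lowest probe set was 0.27 on the log2 scale, against 0.30 for all such genes. All of them read RNA of the same embryos, so their agreement says nothing about other embryos.

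**Figure D3:**
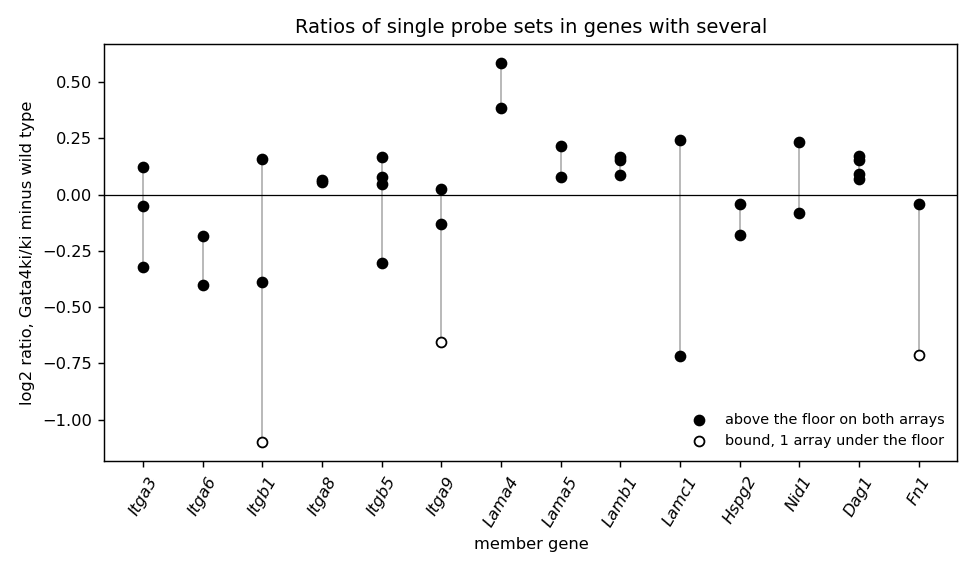
Log2 ratio, Gata4ki/ki minus wild type, of every measured probe set in the 14 genes with at least 2 of them; filled points were above the floor on both arrays and open points are bounds with 1 array under it. Lama4 has both points above 0 and Itga6 both below, while Itgb1 spans from -1.10 to 0.16.

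The genes that work beside this family on the same arrays were mostly flat as well. Among 10 collagens of basement membranes 7 were measured and none was 1.5-fold apart, with a median of 0.11. Col15a1, a collagen of vessel and muscle basement membranes, read 66.2 and 96.9 (0.55), and the type IV collagen chains Col4a5, Col4a6 and Col4a1 had 0.23, -0.13 and 0.11. Of 18 measured other basement membrane matrix genes, 2 were 1.5-fold higher and none lower, with a median of 0.05. Fbln5, an elastic fibre protein with an RGD motif, read 214.1 and 361.0 (0.75). Fras1, a protein of epithelial basement membranes, gave 126.3 and 207.3, which is 0.71 on the log2 scale, while its dimmer probe set had 0.04. Smoc2, a SPARC relative, and Tinag, a protein of tubular basement membranes, had ratios of 0.57 and 0.38.

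Focal adhesions are the intracellular anchors of integrins, and 28 of their genes were on the array, each of them measured. The median was 0.05, 1 gene was 1.5-fold higher and none lower. That gene was Fermt3, the kindlin of blood cells, which read 239.9 and 434.3 (0.86), with 0.63 on the other probe set. Lims2, a PINCH adaptor, had a bound of 0.33, and the signalling adaptors Crkl and Bcar1 had ratios of -0.33 and 0.31, with 0.23 on the other probe set of Crkl. The macrophage and platelet markers given beside Itgb3 were higher on the same array, and their part in the Fermt3 value was not tested.

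Other matrix receptors had a median of -0.05 over 13 measured genes, with 1 gene 2-fold higher and none 1.5-fold lower. Sdc4, syndecan 4, read 41.5 and 106.3 (1.36), but -0.29 on the other probe set. Bcam, a laminin alpha 5 receptor, read 221.1 and 150.3 (-0.56), and Cd9, a tetraspanin that associates with integrins, and Ddr1, a collagen receptor kinase, had 0.49 and -0.44, the 7 measured probe sets of Ddr1 running from -1.23 to 0.77. The 8 measured genes of the dystrophin complex, the partner of dystroglycan inside the cell, had a median of -0.06, with 1 gene 1.5-fold lower and none higher. Sntb2, a syntrophin, read 49.5 and 28.4 (-0.80), followed by Sgce at -0.41, Sspn at 0.11 and Dtna at -0.11, though Dtna reached 0.37 on another probe set. The 8 measured genes that glycosylate dystroglycan ranged only from -0.19 to 0.07, with B3galnt2 lowest, and Pomt1, Rxylt1 and Pomk at -0.17, -0.09 and 0.07. Of the other integrin subunits only Itgav and Itgb2 were measured, and Itgb2, the leukocyte beta 2 subunit, read 17.97 and 27.0, a bound of 0.17. Itgae, Itgax, Itgal and Itgam were not above the floor.

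Other integrin ligands had the highest median of these lists, 0.23 over 16 measured genes, with 4 at least 1.5-fold higher and none lower. Thbs1, thrombospondin 1, a matrix and platelet granule protein, read 26.7 and 57.4 (1.10), with 0.50 on the other probe set. Vwf, the von Willebrand factor of endothelium and platelets, read 52.4 and 90.7 (0.79). Ccn1, a matricellular ligand, read 95.8 and 155.5 (0.70), with all 3 probe sets above 0. Madcam1, an adhesion molecule for lymphocytes, read 30.8 and 47.0 (0.61). These ligands were listed with earlier results of the same arrays known, and their median stands beside 0.01 for all genes as a description.

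The tissue markers showed what was on each array. Gonadal genes were present on both, with a list median of -0.01 over 6 genes. Nr5a1 read 218.7 and 276.7 (0.34), Gata4 240.8 and 286.2 (0.25, with -0.51 on its dimmer probe set) and Emx2 1034 and 885 (-0.22). Mesonephric genes were present as well, of which Calb1, Wnt7a and Ret had ratios of -0.72, -0.63 and -0.34, with dimmer probe sets of Wnt7a at 0.34 and of Ret at 0.13. The mesonephric duct and tubule list had a median of -0.15 over 10 genes, with 7 below 0 and 3 above. Its signals summed to 2108 and 1807. The coelomic epithelium list, another home of epithelial laminin, had a median of 0.15 over 9 genes and sums of 3767 and 4147. Germ cell and stromal lists had medians of 0.02 over 8 genes and 0.00 over 10. Erythroid genes had 1.03 over 7, with 2 bounds, and steroidogenic genes 1.24 over 6, with 3 bounds. The Sertoli median of -0.49 over 5 genes was the bound of Cst9, and 2 of the 5 were above 0. Skeletal muscle genes had -0.36 over 4, neural genes 0.00 over 6, trophoblast genes 0.11 over 5 and liver genes -0.07 over 2. Ovarian supporting genes had -0.69 over 10, with Fst, Foxl2 and Msx1 at -3.55, -2.05 and -1.41. The part of any of these in the values of the integrin and basement membrane genes was not tested.

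**Figure D4:**
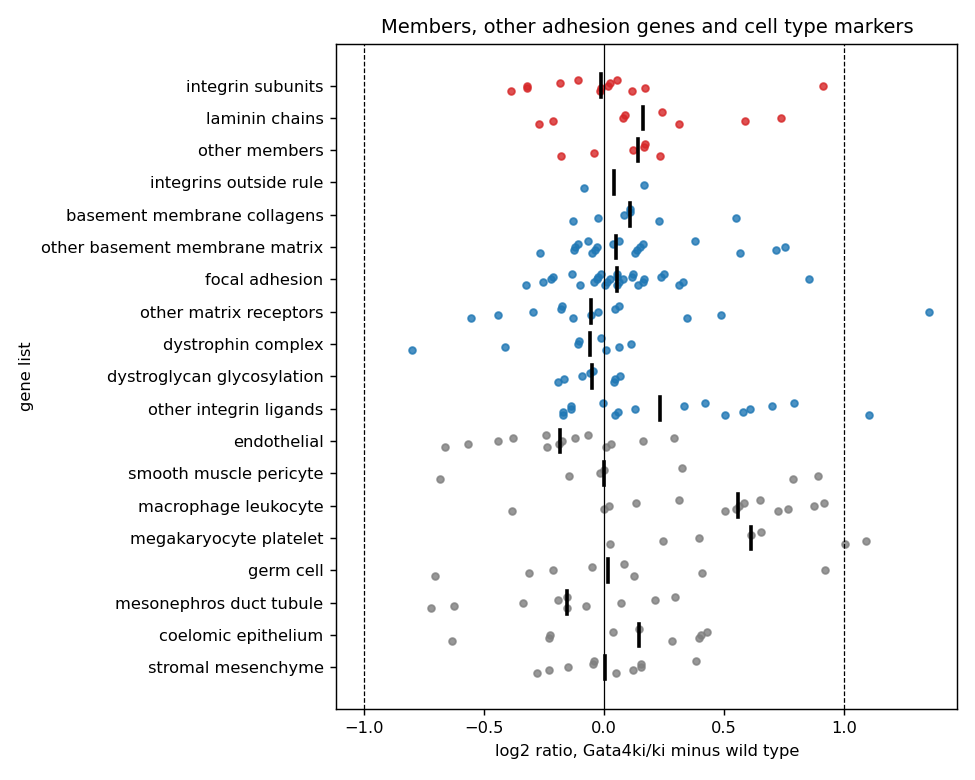
Log2 ratio, Gata4ki/ki minus wild type, of each measured gene (points) in the integrin, laminin and other basement membrane genes (red), in lists of related adhesion genes (blue) and in lists of cell type markers (grey), with the median of each list as a black bar and dashed lines at 2-fold. Macrophage and megakaryocyte markers have medians of 0.56 and 0.61, while the integrin subunits have one of -0.01 and the laminin chains one of 0.16.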

How the data were processed

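Gonad-mesonephros RNA was read on 2 oligonucleotide arrays, 1 per group. Per the submitters' processing notes, MAS5 made the deposited intensities, which are linear signals, 1 per probe set. Not given in the sources used here were its version, detection calls and any filter. The trimmed mean, without the top and bottom 2%, was 150.0 on both arrays, and the values were used as deposited. Of 45101 probe sets, 34945 had exactly 1 gene symbol in the platform's annotation and were no control. All 36 gene numbers were found in the RefSeq table of GRCm38.p6.

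The floor was the 50th percentile of signal over both arrays, and lower values were set to it before log2. The probe set brightest on average over both arrays stood for its gene. Signals summed over a list are weighted to its brightest probe sets and are not a measure of cell number. Genes 2-fold and 1.5-fold apart were counted over all measured genes, with bounds at their value. With 1 array per group, precision is limited by the number of arrays, and no test was made. The procedure was tested on simulated data, with shifts planted only in genes well above the floor on both arrays. That test does not cover genes near the floor, such as Itgb3 and Lama3. Python 3.11.15 with pandas 2.3.3 and statsmodels 0.14.6 was used.

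The genes, 8 lists of related adhesion genes and 17 marker lists were chosen with earlier results of these data known. Every measured gene of the family is named; from the other lists up to 4 genes with the largest absolute ratios, or 3 for marker lists, are named, with Itgav in any case, and further genes where they complete a group were chosen after their values were seen. The GC box and TATA box searches and the choice of Itgb7 for printing were added after the values were seen. Protein sequences were not analysed here. The 7 alternatives changed the floor, the pseudocount, the choice of probe set or the normalization.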

Additional observations from a re-analysis of the deposited data

How the results depend on the processing

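No setting put any of the measured integrin, laminin or basement membrane genes 2-fold apart, and none put one 1.5-fold lower. The 1.5-fold higher count was 3 as reported, 1 with a pseudocount equal to the floor in place of the floor (Itgb3), and 2 or 3 in the other 6 settings, where Itgb3 was always included. The median of the family ranged from 0.01, with the median over probe sets, to 0.07. Of 183 values of single genes under the alternatives, 177 moved by less than the robust SD of genes of like signal, 6 moved by more, and 5 had another sign than as reported: Lamc1 at -0.24 and Itga9 at -0.13 with the median over probe sets, Itgb1 at 0.16 and Itgb5 at -0.31 without suffixed probe sets, and Itga4 at 0.01 with lowess centring. All 6 larger moves came with the median over probe sets or without suffixed probe sets. A changed floor leaves the ratio of a gene above it as it was. The median leaves a gene with 1 measured probe set as it was. Many of the 177 could therefore not move, and their number is no measure of how firm the values are. Counts over all genes depended on the floor: 104 higher and 66 lower at 2-fold became 210 and 136 with the 40th percentile, 41 and 33 with the 60th, and 64 and 41 with the pseudocount. At 1.5-fold, 436 and 382 became 798 and 632, 200 and 186, and 297 and 228. Signal over background limits Itgb3, Lama3, Itga10 and Itga4, whose wild-type signals lie under 48.5, the 60th percentile; of these Lama3, Itga10 and Itga4 were not measured at that floor.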
